A study of Saccharomyces cerevisiae with 41 samples.

Results

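Rio1 particles and 80S-like particles are late pre-40S particles of Saccharomyces cerevisiae that both still hold 20S pre-rRNA, and their 1M7 reactivity profiles were compared here at every nucleotide of the 18S sequence. The comparison takes 8 of the 41 samples of the series: 3 of Rio1, 2 of 80S-like and 3 untreated late controls, which served both particles. They were chosen by the purification, reagent and RNA that the labels name, and they make up 3 of the 17 columns of drop-off rates in the deposited table. Nucleotides 2 to 1800 were compared, 1799 in all, because all 17 columns hold a rate of 1 at nucleotide 1.

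The study followed the structure of the 18S sequence in ribosome assembly intermediates by chemical probing. 1M7 acylates the ribose of flexible nucleotides, and reverse transcriptase, primed here with random hexamers, stops at the adduct. The drop-off rate is the authors' fraction of stops at a position, a mean over the samples of a group. The samples of a group do not appear 1 by 1 in the table and no read depth is given, so no spread between replicates, counting interval or test stands behind any difference below, and each is a difference between authors' means.

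The Rio1 samples came from BY4741 with rio1-HTP::K.I.URA3. The 80S-like samples came from BY4741 with GAL::3HA-fap7::kanMX4, in which a galactose-driven promoter controls FAP7, and with fun12-TAP::K.I.HIS3 for the purification. Both were treated with 1M7 and are labelled as purified 20S RNA. The late controls are labelled as 18S RNA with the treatment "control"; 2 came from the fun12-TAP strain and 1 from BY4741 with nob1-TAP::K.I.URA3, so none came from the rio1-HTP strain or from a strain with the GAL promoter before FAP7. Cells grew at 30 °C in medium with dextrose or in medium with galactose and raffinose, and the labels do not say which culture had which. The tag, the tagged protein, the FAP7 promoter and the particle therefore change together and cannot be told apart. The rates end at nucleotide 1800, the 3' end of 18S, so the 20S label could not be checked against the spacer that follows.

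The final cytoplasmic steps of small subunit assembly take place around the 20S pre-rRNA, whose 3' end the nuclease Nob1 cuts to give 18S. Rio1 is an ATPase of the RIO kinase family that acts on the last pre-40S particles before this cut. Fun12, the yeast eIF5B, promotes joining of the large subunit to late pre-40S particles as well as to initiating ribosomes, and the ATPase Fap7 is needed for 20S cleavage, so that 80S-like particles with 20S pre-rRNA collect without it. In the finished subunit the decoding site lies where the base of helix h44 meets h18 in the body, the P site is bordered by h31 of the head, and h45 at the 3' end carries a pair of dimethylated adenines.

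The 5 stretches that hold most of the clear differences are shown with every nucleotide in capitals at which the particles differed by both measures used below. They run 5' to 3' in the letters of the deposited table, with T for U, and each line names its first and last nucleotide by base and position in 18S.
5' domain, A400 to C455: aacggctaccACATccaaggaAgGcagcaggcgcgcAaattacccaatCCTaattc
Expansion segment 6, A630 to U680: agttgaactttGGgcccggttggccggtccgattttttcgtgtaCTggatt
Head around h31, G1165 to C1205: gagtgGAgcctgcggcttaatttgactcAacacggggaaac
Head, A1230 to U1285: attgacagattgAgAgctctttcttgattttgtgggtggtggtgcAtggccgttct
3' strand of h44 to the 3' end, G1715 to A1800: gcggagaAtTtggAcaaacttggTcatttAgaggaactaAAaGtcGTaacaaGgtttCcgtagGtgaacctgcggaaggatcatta
In the first stretch 7 capitals were higher in 80S-like particles (ACAT at 410 to 413 and CCT at 448 to 450) and 3 were higher in Rio1 particles. In the head all 6 capitals of both stretches were higher in Rio1 particles, and in the last stretch 5 were higher in 80S-like and 8 in Rio1. A capital marks the position at which a stop was listed, and nucleotides given below with a rate or reactivity are likewise named by the stop. In the DMS data of the same series, where the methylated base is known to be A or C, the base 5' of the stop was A at 87 and C at 7 of the 100 strongest stops, against 50 and 11 at the stop itself, so the modified nucleotide is read as the one 5' of a listed stop.

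Differences were counted by a pair of measures. Reactivity was the treated rate minus the late control rate, scaled by that column's mean over the 8% of positions ranked next after its highest 2%, so that a value of 1 is the mean of highly reactive nucleotides and a negative value is a rate below the control. The divisor was 0.0392 for Rio1 and 0.0360 for 80S-like. A nucleotide counted by reactivity where the particles differed by at least 0.5, and by treated rate where the rates plus 0.005 differed at least 2-fold and the higher rate was at least 0.02. The second measure uses neither control nor scaling.

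By reactivity 221 of 1799 nucleotides (12.3%) differed, 109 higher in 80S-like particles (6.06%) and 112 higher in Rio1 particles (6.23%). By treated rate 80 nucleotides (4.45%) differed, 27 higher in 80S-like (1.5%) and 53 higher in Rio1 (2.95%). Both measures named 60 nucleotides (3.34%), 20 higher in 80S-like (1.11%) and 40 higher in Rio1 (2.22%). At 0 nucleotides did a difference in reactivity go against a counted difference in rate, which the shared control and the similar divisors nearly fix by construction. The reactivity counts were thus nearly even between the particles, while the counts by rate and by both measures held more nucleotides higher in Rio1. Among the 876 nucleotides with a rate of at least 0.02 in one of the particles, stops at G leaned toward Rio1 (94 stops, median log2 ratio of 80S-like to Rio1 -0.56) and stops at U toward 80S-like (332 stops, 0.18). With the median of each base taken out, both measures named 16 nucleotides higher in 80S-like and 25 higher in Rio1, as described below. The median absolute difference in reactivity was 0.111 and its upper quartile 0.273. The 12 nucleotides just inside the reactivity threshold differed by 0.502 to 0.518 and the 10 just outside it by 0.481 to 0.499.

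**Figure D1:**
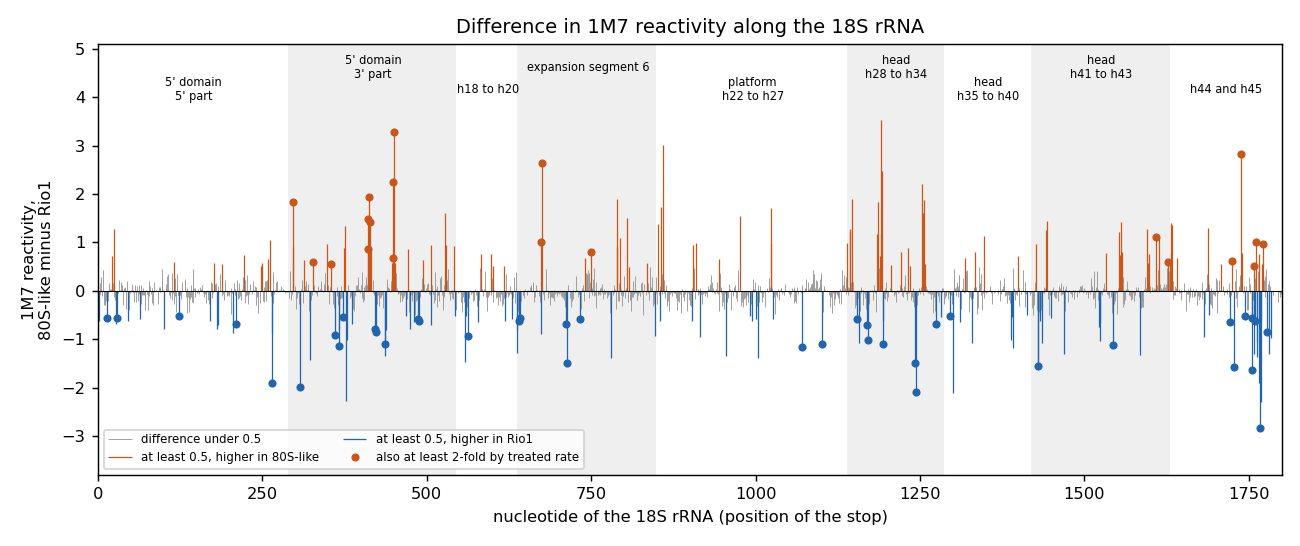
Difference in 1M7 reactivity (80S-like minus Rio1, authors' means, late control subtracted from both) at each stop position of the 18S sequence. Lines in colour differ by at least 0.5, circles also differ at least 2-fold by treated rate, and shading separates the 9 segments used for counting; circles above 0 gather in the 3' part of the 5' domain, and in the head from h28 to h34 all 7 circles lie below 0.

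The profiles were otherwise alike in level. The mean rate was 0.0300 in Rio1 and 0.0292 in 80S-like particles, against 0.0285 in the late controls, and the median rate was 0.0172, 0.0149 and 0.0184. Rates lay above the late control at 44.5% of nucleotides in Rio1 and 41.7% in 80S-like. Of the nucleotides with a reactivity of at least 0.3, 301 in Rio1 and 280 in 80S-like, 179 were shared, which is 59.5% of the Rio1 set and 63.9% of the 80S-like set. Across nucleotides the treated rates correlated at a Pearson r of 0.938 (Spearman 0.912), and at 0.906 without C1192 and A1782, which carry the highest rates of both columns. The r of the reactivities was 0.777, and since both subtract the same control that r can itself be raised by the shared control. Nucleotides are not independent replicates, and these coefficients describe the columns only.

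**Figure D2:**
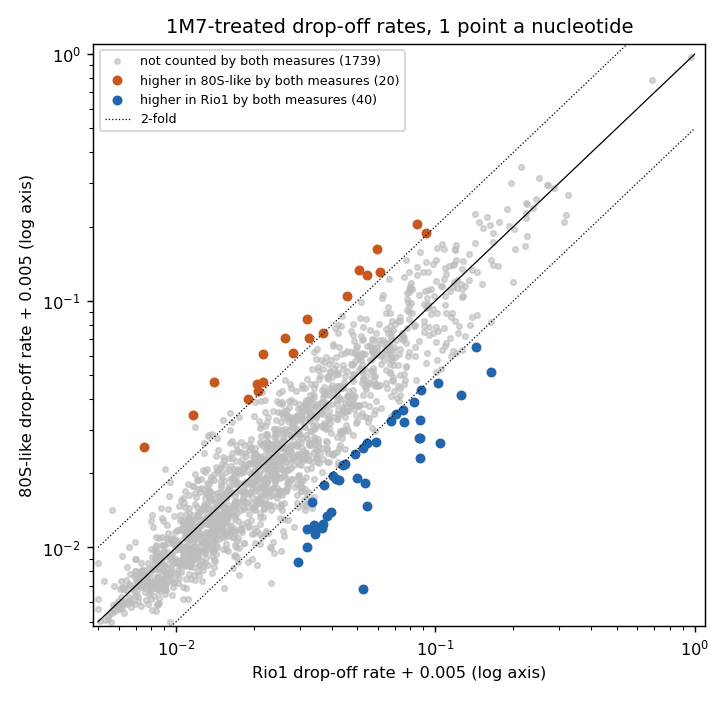
Treated drop-off rates of 80S-like (vertical) against Rio1 particles (horizontal), each plus 0.005 on log axes, 1 point a nucleotide, with equality as a solid line and 2-fold as dotted lines. The 40 nucleotides higher in Rio1 and the 20 higher in 80S-like by both measures lie beyond the dotted lines, and C1070 is the blue point farthest from equality.

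Set among the 8 purifications probed with 1M7, these 2 columns were near each other. Of the 28 possible pairs of 1M7 columns, ordered from the fewest differences by treated rate, this pair ranked 8, and its 80 stood beside a median of 135 over the pairs. Nob1 particles, another late 20S particle, differed from 80S-like at 41 nucleotides and from Rio1 at 67 by the same measure. By reactivity Nob1 differed from 80S-like at 174 nucleotides and from Rio1 at 229, with the same late control under all 3 columns.

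The lists of the 5 stops of highest reactivity shared 4 members. The 5 highest reactivities of Rio1 were G1768 (6.91), A907 (4.93), A378 (4.89), U1347 (4.83) and A905 (3.81). Those of 80S-like were U1347 (5.97), A907 (5.41), A905 (4.75), G1768 (4.62) and U1738 (4.54). A907, in h23 on the platform, had a rate of 0.232 in Rio1 and 0.234 in 80S-like over a control of 0.0390, so the rates were nearly equal there. U1347 in the head had rates of 0.218 and 0.244 over 0.0288. G1768, A378 and U1738 are the members of these lists with the larger differences, and they are described below.

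The 3' strand of h44 and the bases that follow held differences in both directions. In the segment of h44 and h45, 13 of 169 nucleotides differed by both measures, 5 higher in 80S-like (2.96%) and 8 higher in Rio1 (4.73%), and 11 of the 13 lay within h44. The stop at A1755 had a rate of 0.0162 in the late control, 0.0820 in Rio1 and 0.0181 in 80S-like. Its reactivity was 1.68 in Rio1 and 0.05 in 80S-like. The 80S-like value was close to the control, and mature 80S was lower still (0.00535), while Enp1 and Ltv1, at 0.0896 and 0.0889, were as high as Rio1. Rio2, at 0.0160, was as low as 80S-like, and Tsr1 (0.0351) and Nob1 (0.0366) lay between.

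A1755 and A1756 are the decoding-site adenines that monitor the pairing of codon and anticodon, and read by the nucleotide 5' of the stop they appear at A1756 and G1757, while the stop at A1755 reads A1754. At the stop A1756 the rates were 0.0294 in Rio1 and 0.0213 in 80S-like over 0.0138, a difference past neither threshold. At the stop G1757 the order was the reverse of that at A1755, with 0.00254 in Rio1 and 0.0206 in 80S-like over 0.00139 in the control, a reactivity of 0.03 against 0.53. That difference of 0.504 lies at the threshold, and it was below 0.5 with each of the 6 other controls and scalings tried. The stops at A1754 and G1760, which fall outside the naming rule and were named after their values were seen, were higher in Rio1, with rates of 0.0271 and 0.0316 against 0.00508 and 0.00694 in 80S-like. U1761 had 0.0319 in Rio1 and 0.0690 in 80S-like, and the other 5 pre-40S columns were higher than both there, from 0.0961 in Tsr1 to 0.131 in Enp1. Of the stops that read the decoding adenines, G1757 (for A1756) was thus past both thresholds toward 80S-like, and A1756 (for A1755) was past neither.

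The junction between h44 and h45 gave the largest difference in reactivity toward Rio1. G1767, the last nucleotide of h44, had a rate of 0.0295 in the control, 0.159 in Rio1 and 0.0465 in 80S-like, and a reactivity of 3.31 against 0.47. Nob1 (0.121) was nearer to Rio1 than to 80S-like at G1767, and mature 80S was at 0.00902. G1767 stands in a run of 4 neighbours, A1766 to U1769, that were all at least 0.5 higher in Rio1 by reactivity. A1766 had rates of 0.195 and 0.114 (reactivity 3.70 and 1.78), G1768 had 0.309 and 0.205 (6.91 and 4.62), and U1769 had 0.162 and 0.135 (1.63 and 1.03). These 3 stayed under 2-fold by rate, and all were reactive in both particles.

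U1738, farther up the 3' strand of h44, went the other way and gave the largest difference toward 80S-like in this segment. Its rate was 0.0206 in the control, 0.0873 in Rio1 and 0.184 in 80S-like, with reactivities of 1.70 and 4.54. The other 6 columns ranged from 0.00838 in mature 80S to 0.0819 in Ltv1, so at U1738 the 80S-like value was the highest of 8 and Rio1 the next. In A1728 the treated rates were 0.0822 in Rio1 and 0.0279 in 80S-like, both below the late control of 0.116. The mid-early control, a pool of 20S samples, was at 0.0175 for A1728, so whether Rio1 lies above or below its background there depends on the control. C1772, in h45, had 0.0275 in Rio1 and 0.0655 in 80S-like over 0.0635.

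**Figure D3:**
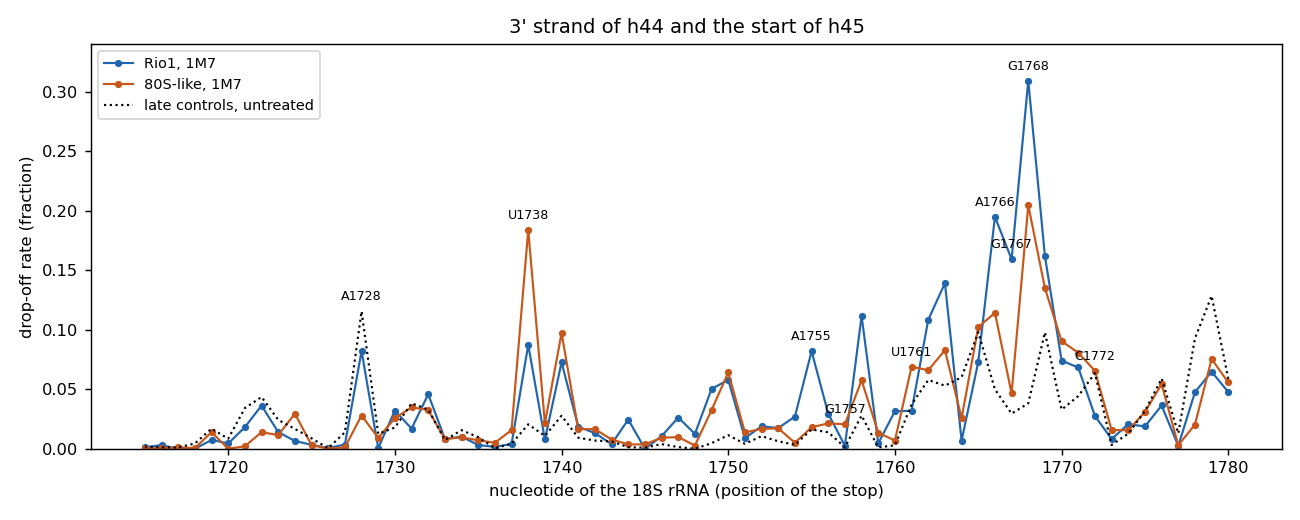
Drop-off rate (fraction) at stop positions G1715 to G1780, from the 3' strand of h44 into h45, for Rio1, 80S-like and the untreated late controls, each the authors' mean. Rio1 is the higher line at A1755 (0.0820 against 0.0181) and at A1766 to G1768, and 80S-like is the higher line at U1738 (0.184 against 0.0873).

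In the head from h28 to h34, which takes in the neck, the P-site helix h31 and the mRNA-side helix h34, 7 of 147 nucleotides (4.76%) were higher in Rio1 by both measures and 0 were higher in 80S-like. By reactivity alone the same segment leaned the other way, with 17 nucleotides higher in 80S-like and 10 higher in Rio1. A1244 had a rate of 0.0158 in the control, 0.120 in Rio1 and 0.0365 in 80S-like, a reactivity of 2.66 against 0.57. Its near neighbour A1242 had 0.0166, 0.0821 and 0.0228, a reactivity of 1.67 against 0.17. At A1242 the 80S-like rate was close to that of mature 80S (0.0220), whereas Rio1 and the other 5 pre-40S columns were at 0.0447 or more. At A1244 80S-like was the lowest of the 8 columns, as it was at 28.3% of all nucleotides, and Nob1, at 0.0922, was the next below Rio1.

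Within h31 the stops at the hypermodified uridine were lower in Rio1. U1191 receives an aminocarboxypropyl group that itself blocks reverse transcriptase. The rate at C1192, the stop 3' of it, was 0.787 in the late control, 0.681 in Rio1 and 0.779 in 80S-like. At U1191 the values were 0.317, 0.210 and 0.345. Because the late control is so high there, the reactivity at U1191 was -2.74 in Rio1 and 0.79 in 80S-like, the largest difference of all toward 80S-like, while the rates differed less than 2-fold. In the mid-early control the rate at C1192 was 0.219, and at U1191 0.102. A1189 and C1190 were also at least 0.5 higher by reactivity in 80S-like, with rates of 0.136 against 0.113 and 0.100 against 0.0577, which makes a run of 4 up to C1192. A1193, the next nucleotide, had 0.0222 in the control, 0.0834 in Rio1 and 0.0385 in 80S-like, and it alone in h31 differed by both measures, toward Rio1.

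A1275, the stop 3' of C1274, a nucleotide of h34 on the decoding side of the head, had a rate of 0.0347 in Rio1 and 0.00896 in 80S-like over a control of 0.0196. At C1274 itself the rates were 0.00408 and 0.00177. The P-site nucleotides G1575 and A1576 are read at the stops A1576 and A1577. A1576 had 0.0141 in Rio1 and 0.00726 in 80S-like, A1577 had 0.020 and 0.0165, and neither differed by either measure. G577 in h18, the partner of the decoding adenines, is read at U578, where both particles were below the control of 0.0872, at 0.0598 and 0.0392. Among these stops A1275 was the only one past both thresholds.

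In the 3' part of the 5' domain, G291 to U546, 10 of 256 nucleotides (3.91%) were higher in 80S-like by both measures and 9 (3.52%) were higher in Rio1, and 10 of all 20 that were higher in 80S-like lay there. The largest of them by reactivity was U450, with a rate of 0.100 in the control, 0.0801 in Rio1 and 0.200 in 80S-like, a reactivity of -0.51 against 2.78. C449 beside it had 0.0691, 0.0458 and 0.129, a reactivity of -0.59 against 1.66. At U450 and C449 the 80S-like rate was the highest of the 8 1M7 columns, and Rio1 lay within the range of the other 6, from 0.0464 to 0.119 at U450. These 2 stops belong to a run of 5, U447 to A451, in which every nucleotide was higher in 80S-like by at least 0.5.

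The run from A410 to U413 was higher in 80S-like at all 4 nucleotides by both measures. A410 had a rate of 0.0997 in the control, 0.0408 in Rio1 and 0.0992 in 80S-like. A412 had 0.0850, 0.0496 and 0.123, and U413 had 0.0407, 0.0271 and 0.0796. At A410 the 80S-like value was equal to the control within 0.001 and the Rio1 value was below it, so there the difference is a lower rate in Rio1. At A412 and U413 the 80S-like rate was above the control, with reactivities of 1.04 and 1.08. Rio1 was the lowest of the 8 columns and 80S-like the highest at all of A410, C411, A412 and U413.

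At U297 the rate was 0.102 in the control, 0.0562 in Rio1 and 0.126 in 80S-like, and there 80S-like was the highest of the 8 columns while Nob1, at 0.0394, was below Rio1. Toward Rio1 the same domain held C308, whose rate was 0.0185 in the control, 0.0996 in Rio1 and 0.0215 in 80S-like, a difference in reactivity (80S-like minus Rio1) of -1.99. At C308 the other 6 columns lay between 0.0121 and 0.0377, so Rio1 stood apart. A378, among the strongest stops of both particles, had 0.123 in the control, 0.315 in Rio1 and 0.218 in 80S-like. In the 5' part of the domain 0 of 289 nucleotides were higher in 80S-like by both measures and 5 were higher in Rio1, led by A265 with 0.0129, 0.138 and 0.0599. At A265 Nob1 was at 0.0992, and the other 5 columns were lower but also above the control, from 0.01975 in Tsr1 to 0.0343 in Rio2.

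Expansion segment 6, the long eukaryotic insertion on the solvent side of the platform, held 3 nucleotides higher in 80S-like and 5 higher in Rio1 among 211. U675 had a rate of 0.144 in the control, 0.0546 in Rio1 and 0.157 in 80S-like, and C674 had 0.0552, 0.0166 and 0.0560. In both the 80S-like value was close to the control and Rio1 was the lowest of the 8 columns, while Nob1 (0.222 at U675) and Rio2 (0.215) were the highest. The reactivity of U675, -2.28 in Rio1 against 0.37 in 80S-like, therefore combines a Rio1 rate well below the control with an 80S-like rate a little above it. A713 had 0.0776 in the control, 0.0972 in Rio1 and 0.0416 in 80S-like.

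The platform from h22 to h27 held few differences, 2 of 290 nucleotides by both measures (0.690%), both higher in Rio1. Neither lay in h23, h24 or h27, where 0 of 45, 0 of 42 and 0 of 28 nucleotides differed by both measures. C1070 had a rate of 0.00161 in the control, 0.0474 in Rio1 and 0.00176 in 80S-like, and no other 1M7 column exceeded 0.00719 there. With NAI, another acylating reagent, the rate at C1070 was 0.00095 in Rio1, 0.0288 in Tsr1 20S and 0.00176 in mature 80S. Rio1 was thus high at C1070 among the 1M7 columns, and with NAI it was not, whereas Tsr1 was. G1101 had 0.0223, 0.0705 and 0.0273. By reactivity alone A859, named after its values were seen, was the largest of the platform toward 80S-like, with rates of 0.166 in the control, 0.190 in Rio1 and 0.297 in 80S-like and reactivities of 0.62 and 3.64.

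The rest of the head held 2 nucleotides higher in 80S-like and 3 higher in Rio1 by both measures. From h35 to h40, 1 of 132 nucleotides differed, A1296, with a rate of 0.0135 in the control, 0.0269 in Rio1 and 0.00690 in 80S-like. A1300 close by, named after its values were seen, came close to 2-fold, with 0.0890, 0.159 and 0.0769 and a reactivity of 1.78 in Rio1 against -0.34. From h41 to h43, U1608 had 0.0689, 0.0214 and 0.0656, higher in 80S-like but not above the control. G1429 had 0.0427, 0.0818 and 0.0229, higher in Rio1 and the highest there of the 8 columns. By reactivity the same stretch held the run G1553 to U1557, higher in 80S-like at all 5 nucleotides with both particles above the control, and the highest member A1556 had rates of 0.147 in Rio1 and 0.193 in 80S-like. A run of 4 from U1630 to A1633, where the head meets h44, was also higher in 80S-like, with A1631 at 0.0705 against 0.120.

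Ribose methylation, which small nucleolar RNAs direct early in assembly, can itself slow reverse transcriptase, so the methylated sites were read separately. A stop listed at a site reads the nucleotide 5' of it, and the methylated nucleotide is read at the stop 3' of the site. At the stops listed at the 18 sites 6 were higher in Rio1 by reactivity (A28, A100, A436, G562, U578 and A619) and 0 were higher in 80S-like, where 6.23% and 6.06% of all nucleotides were. The median difference over the 18 was -0.141, against -0.029 over all nucleotides, and 80S-like was the lower at 14 of 18, as at 1093 of 1799 overall. By both measures 2 of these stops were higher in Rio1, A436 and G562, beside 2.22% of all nucleotides. At the stops 3' of the 18 sites, which read the methylated nucleotides, 4 were higher in Rio1 by reactivity (U29, A421, A437 and G1429) and 2 in 80S-like (A542 and C1640), with a median of -0.147. By both measures U29, A421 and G1429 were higher in Rio1 and 0 were higher in 80S-like. With 18 sites such counts are small, and they were not tested. G562 in h18 had a rate of 0.0223 in the control, 0.0487 in Rio1 and 0.0132 in 80S-like, and A436 had 0.107, 0.0656 and 0.0297. At A436, A100 and U578 both particles were below the control, so neither was reactive at these stops. Their reactivities in Rio1 and 80S-like were -1.04 and -2.13, -3.63 and -4.41, and -0.70 and -1.34.

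Of the base-modified nucleotides, the dimethylated A1781 and A1782 of h45 had high stops in all 3 columns. A1782 was at 0.950 in the control, 0.967 in Rio1 and 0.969 in 80S-like. A1781 was at 0.215, 0.320 and 0.264, a reactivity of 2.66 in Rio1 and 1.36 in 80S-like. By the nucleotide 5' of the stop, the stop A1782 reads A1781, C1783 reads A1782, and the stop A1781 reads the base before it. The stop at A1782 was thus near complete whichever particle was read, and the difference at the stop A1781 stayed under 2-fold. C1783, the stop 3' of A1782, was at 0.129, 0.220 and 0.178, a reactivity of 2.32 in Rio1 and 1.35 in 80S-like. That difference counted toward Rio1 by reactivity and stayed under 2-fold by rate. C1280 and C1773, which are acetylated, and G1575, which is methylated, did not pass either threshold.

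Which of the particles departs from its relatives was read from the other 1M7 columns. Of the 40 nucleotides higher in Rio1 by both measures, 30 had a reactivity of at least 0.3 in Rio1 and 4 in 80S-like, and at 7 both particles were below the control. Choosing nucleotides by the same reactivities in part fixes this contrast, and of all 1799 nucleotides 301 in Rio1 and 280 in 80S-like reached 0.3. Rio1 had the highest rate of the 8 columns at 25 of the 40, against 11.4% of all nucleotides, a share that the choice of nucleotides in part fixes. The Nob1 rate was nearer to 80S-like than to Rio1 at 30 of the 40, that of mature 80S at 27, Tsr1 at 25, Enp1 at 24, Ltv1 at 23 and Rio2 at 18. The choice of nucleotides in part fixes these counts too, and the matching shares over all nucleotides were not computed. Nob1 was also the nearer to 80S-like over the whole sequence, with 41 differences by treated rate against 67 from Rio1. Of the 20 nucleotides higher in 80S-like, 12 were at least 0.3 in 80S-like and 1 in Rio1, a contrast that the choice in part fixes as well, and at 4 both were below the control. The Nob1, Tsr1 and Enp1 rates were each nearer to 80S-like at 12 of these 20, Ltv1 at 10, Rio2 at 9 and mature 80S at 7. 80S-like was the highest of 8 at 13 of the 20 (10.1% of all nucleotides) and Rio1 the lowest of 8 at 13 (15.01% of all), and the same caution applies. Among the 20 there are thus stops that 80S-like has in excess, such as U450, and stops that are low in Rio1, such as U675.

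**Figure D4:**
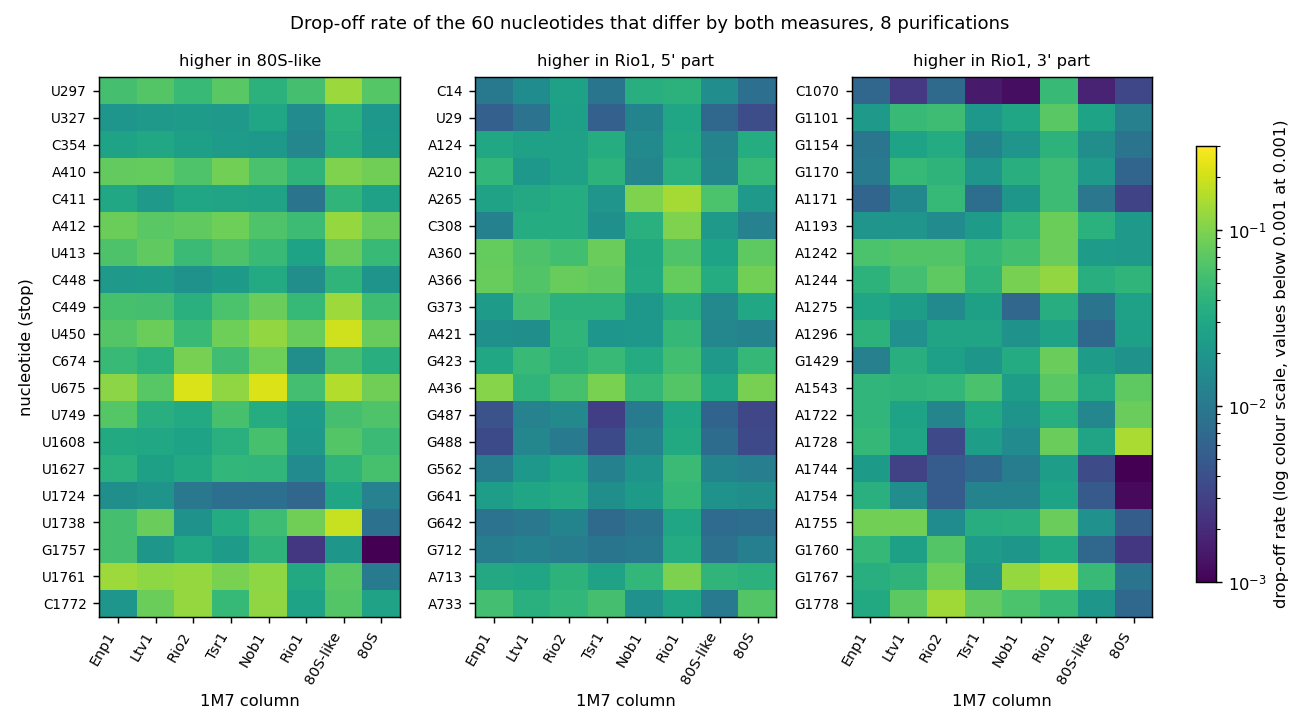
Treated drop-off rate on a log colour scale for the 60 nucleotides that differ by both measures (rows, by position) in the 8 1M7 columns. The Rio1 column is the brightest in many rows of the middle and right panels, such as C308 and C1070, and in the left panel 80S-like is the brightest at U450 and U1738 but not at U675, where Nob1 and Rio2 are.

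NAI, used on Rio1 particles (1 sample) and on mature 80S, gave another reading of the Rio1 side, and it was also used on Tsr1 20S particles. No NAI values of 80S-like were used here. NAI reactivity of Rio1, against the untreated 20S column of the NAI set, was at least 0.3 at 9 of the 40 nucleotides higher in Rio1 and at 1 of the 20 higher in 80S-like, beside 12.8% of all nucleotides. NAI reactivity of Tsr1 was at least 0.3 at 13 of the 40 and 1 of the 20, beside 13.2% of all. A1244 had an NAI reactivity of 3.92 in Rio1 and 5.76 in mature 80S. G1767 had 1.46 in Rio1 and 2.39 in Tsr1, and was listed at a rate of 0 in mature 80S with NAI. A1754 had 2.34 in Rio1, and G1757, the stop higher in 80S-like with 1M7, had 1.19 in Rio1. In the 1 Rio1 sample with NAI, therefore, G1767, A1754 and G1757 were listed above 0.3, although with 1M7 G1757 was not. Other nucleotides high in Rio1 with 1M7 were below 0.3 there with NAI: A1755 had -0.06, A1242 -0.50, C308 -0.64, A265 -0.02 and C1070 -0.04. Near the 3' end this NAI column had the same rate of 0.0784 at G1757 and U1761, and 0 at U1738 and G1760. Its depth is unknown, so these contrasts between NAI and 1M7 may rest on few reads and are not firm.

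The base at a listed stop differed between the directions. Of the 109 nucleotides higher in 80S-like by reactivity, 60 were U (55.0%) and 2 were G, and of the 112 higher in Rio1, 65 were A (58.0%). Over all nucleotides U made up 28.3% and A 26.8%, and among the 876 with a rate of at least 0.02 in one of the particles, 37.9% and 40.98%. The base 5' of the stop, read as the modified one, was G at 55 of the 112 nucleotides higher in Rio1 (49.1%), against 25 of the 109 higher in 80S-like, 25.5% of all and 24.4% of those 876. An A stop after a G was higher in Rio1 at 29 of 123 such places (23.6%) and higher in 80S-like at 9 (7.32%); A265, A1242, A1244 and A1728 are of that kind.

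**Figure D5:**
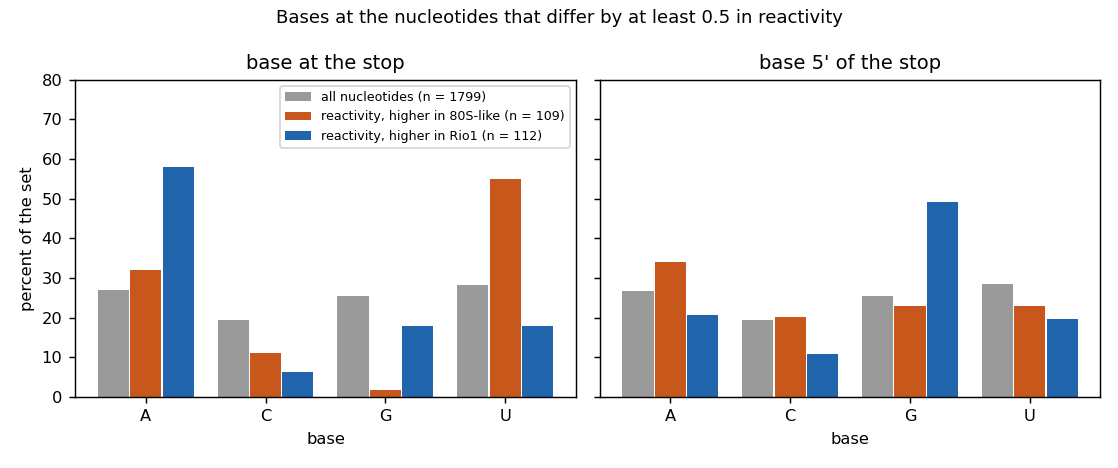
Percent of nucleotides with each base at the stop (left) and 5' of the stop (right), over all 1799 nucleotides and over those at least 0.5 higher by reactivity in 80S-like (109) or in Rio1 (112). At the stop the 80S-like set is richest in U (55.0%) and the Rio1 set in A (58.0%), and 5' of the stop the Rio1 set is richest in G (49.1%).

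The ratio of the treated rates also differed by base. Among the 876 nucleotides with a rate of at least 0.02 in one of the particles, the median log2 ratio of 80S-like to Rio1 was -0.02. It was -0.56 for stops at G, -0.19 at A, 0.12 at C and 0.18 at U, and -0.31 where the base 5' of the stop was G. With the median of its base taken from each log2 ratio, 41 nucleotides differed by both measures, 16 higher in 80S-like and 25 in Rio1, and these held 11 of the 20 and 19 of the 40 counted without it. G was the base 5' of the stop at 14 of those 25. U1738, U297, U1761, A265, A366, A713, A1193, G562 and G1101 were among the named nucleotides that no longer reached 2-fold after this centring. U450, U675, C308, C1070, A1244, A1755 and G1767 were among those that still did. How much of each single difference this shift makes up was otherwise not tested.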

How the data were processed

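Drop-off of reverse transcriptase after 1M7 was measured on RNA of tagged particles, and the deposited table gives it as a fraction from 0 to 1 for each of 1800 nucleotides, 1 column a group, averaged by the authors over the group's samples. Per the submitters' processing notes the tools included Novoalign 2.07. The formula of the rate is not given in the sources used here. The deposited rates are without subtraction of a control and come with no depth. RDN18-1 and RDN18-2 of the RefSeq table are each 1800 nucleotides long; the file names no build, so no coordinates are printed.

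Groups follow the labels. Reactivities, differences and counts were computed in Python 3.11.15 with numpy 2.4.6, pandas 2.3.3 and scipy 1.17.1, and figures with matplotlib 3.10.9. The counting was tested on the deposited Rio1 column with known changes put in, without simulated noise. With 1 averaged column a side no statistical test was run. The 9 segments begin at nucleotides 1, 291, 547, 640, 851, 1141, 1288, 1420 and 1632; h18 spans 547 to 592, h23 884 to 928, h24 980 to 1021, h27 1109 to 1136, h31 1181 to 1200, h44 1634 to 1767 and h45 1769 to 1792. NAI on Rio1 was set against the DMSO column of Tsr1 20S RNA and NAI on 80S against its own.

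Nucleotides could be named if among the 15 largest differences in each direction by both measures, the largest of a segment, in a run of 3 or more, a listed modified, decoding or P-site nucleotide or the one 3' of it, or among the 5 highest reactivities of a column. The comparison, regions and lists were chosen with earlier results of these data known. Other controls, divisors, thresholds, pseudocounts and filters were tried. The DMS columns served only to place the stop; leaving out replicates was not possible.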

Additional observations from a re-analysis of the deposited data

How the results depend on the processing

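No nucleotide that counted was counted in the opposite direction under any alternative. Other thresholds, pseudocounts, minimum rates and filters cannot change a direction by construction. Changes of sign below the threshold were looked for only at the 38 named nucleotides, under other controls and divisors, and 0 were found. Each setting put the same control under both columns, with divisors of similar size, and the 38 were chosen for differences past both thresholds. A reversal was therefore hardly possible, and its absence says little about the directions. The 221 nucleotides that differed by reactivity became 48 with no control subtracted, 142 with the divisor from the top decile of nucleotides, 403 at a threshold of 0.3 and 85 at 1; with 7 other controls, divisors and filters the count was 177 to 224. The 80 by treated rate became 41 with a pseudocount of 0.01, 245 at 1.5-fold, 14 at 3-fold (2 higher in 80S-like, 12 in Rio1), 29 with a minimum rate of 0.05 (13 and 16) and, chosen after seeing the data, 50 with ratios centred by the base at the stop (20 and 30). Also chosen after seeing the data, thresholds of 1 and 3-fold together left 8 of the 60 that differed by both measures, all higher in Rio1. The r of the columns was 0.777 by reactivity and 0.938 by treated rate. Of 38 named nucleotides that differed by both measures under 6 settings each, 33 of 228 values were under the threshold, most of them with no control. With no control the divisor, too, came from unsubtracted rates, which makes the scaling differ by construction, and all 48 nucleotides left were among the 221. The cause of these changes was otherwise not tested, beyond what a stricter or looser threshold does by construction.

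No paired analysis was possible because the table holds only the authors' means and no replicate values, so leaving out replicates was not run either. The depth is unknown, so low rates such as those near G1757 and C1070 have no counting limit.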
